A study of Mus musculus with 25 samples.

Results

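The interleukin-6 (IL-6) and leukaemia inhibitory factor (LIF) family was followed in mouse basal cell carcinoma as 10 genes chosen by symbol, of 24015 gene symbols listed in each of the tumour and the cell line tables. The members are the ligand genes Il6, Lif, Osm (oncostatin M), Il11 and Clcf1 (cardiotrophin-like cytokine factor 1), the receptor genes Osmr, Lifr and Il6st, the transcription factor gene Stat3 and its feedback inhibitor gene Socs3. All 10 rows were found in both tables. They were chosen for what they encode, though earlier results of these data were known at that time.

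Ligands of this family bind receptor complexes built around gp130, the signalling subunit that Il6st encodes. Janus kinases held by the receptors then phosphorylate STAT3, which enters the nucleus and switches on target genes, among them Socs3. SOCS3 protein binds gp130 and the kinases and shuts the signal off, so its transcript is widely used as a readout of the pathway. In skin the family is known from wound repair and inflammation, where keratinocytes respond to oncostatin M through OSMR paired with gp130.

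RNA was sequenced from 4 resistant and 4 sensitive tumours and from ASZ001 cells, an established mouse basal cell carcinoma line described as resistant, after CCG-1423, vismodegib or vehicle, in 3 libraries each. Both tumour groups grew in C57BL6 mice that were Ptch+/- and p53 fl/fl and carried K14 Cre-ER, an inducible Cre recombinase driven by the keratin 14 promoter of basal keratinocytes. All tumour mice received by mouth a drug that blocks Smo, the membrane protein through which Hedgehog signals pass. Vismodegib is a Smo inhibitor, and CCG-1423 inhibits signalling through the actin-regulated SRF coactivators MRTF, which the study's title links to the Hedgehog pathway in resistant tumours. The sources used here give neither ages, sexes, doses nor durations, and ASZ001 is a single line. Nothing says whether replicates are separate animals or cultures, so each p-value reflects only library-to-library spread, which may be technical. Values are read counts per gene divided by a size factor per library, called normalized counts, and are comparable within a table only.

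Reads at genes numbered 17537094 to 20014426 in resistant tumours, 8111252 to 14161398 in sensitive tumours and 30455530 to 44017757 in the cell libraries. The first principal component of the tumours held 65.9% of the variance and put sensitive tumour 4, at 66.0, beside the resistant tumours, at 48.3 to 65.5, and away from sensitive tumours 1 to 3, at -98.1 to -88.7. Sensitive tumours 1 to 3 had 1391 to 2174 reads of 4 Y-linked genes, and the other tumours had 0, so without sensitive tumour 4 the group and the sex of the mice cannot be told apart. Gli1 and Ptch1, both Hedgehog target genes, stood the same way, with Gli1 at 1456 to 3541 normalized counts in resistant tumours, 1976 in sensitive tumour 4 and 532 to 649 in sensitive tumours 1 to 3, and Ptch1 at 1166 to 3392 in resistant tumours, 3138 in sensitive tumour 4 and 165 to 548 in sensitive tumours 1 to 3. The library labelled sensitive tumour 4 thus lay with the resistant tumours, against its label, which bears on every mean of the sensitive group. Its label was kept, and tumour comparisons are given with and without it. That tumour was singled out by these same values, and leaving it out favours a gap between the groups. P-values and counts without it therefore describe that gap and are no independent test of it. All 6 basal keratinocyte markers (such as Krt5, Krt14 and Trp63) were present in every group. Over the cell libraries the 6 fibroblast markers summed to 97.8 to 205 normalized counts, with Pdgfra, Dcn, Col1a1, Col1a2 and, except with CCG-1423, Col3a1 detected and Lum at 0 reads. The 5 neutrophil markers summed to 47.9 to 145.6, nearly all of it Cxcr2, with Retnlg at 0 reads, and the 4 T cell markers in the table summed to 0 to 3.36 normalized counts. In bulk tissue, fewer cells of a type and less RNA per cell cannot be told apart.

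The promoters of Il6, Lif, Il11 and Socs3 are shown because each gene holds a match to a searched motif and passed in a fit described below. Il11 passed only without sensitive tumour 4, a fit that is no independent test. RefSeq promoter sequences of GRCm38.p6 were matched for 8 of the 10 members, and Osm and Clcf1 had no entry. The 250 bases before the annotated start are given from 5′ to 3′ on the gene's strand. They lie at chr5:30012864-30013113 on the plus strand for Il6, chr11:4257318-4257567 on the plus strand for Lif, chr7:4778142-4778391 on the minus strand for the more downstream of the 2 Il11 starts, and chr11:117969367-117969616 on the minus strand for Socs3. Capitals mark matches on either strand to a STAT motif (TTCNNNGAA), an AP-1 motif (TGANTCA), a CRE core (TGACG) or an NF-kB motif, and no match overlaps another.
Il6: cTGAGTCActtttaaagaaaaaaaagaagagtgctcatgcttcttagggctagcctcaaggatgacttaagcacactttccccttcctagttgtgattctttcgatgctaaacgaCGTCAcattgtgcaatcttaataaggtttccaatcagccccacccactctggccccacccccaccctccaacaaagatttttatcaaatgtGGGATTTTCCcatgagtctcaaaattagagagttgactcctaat
Lif: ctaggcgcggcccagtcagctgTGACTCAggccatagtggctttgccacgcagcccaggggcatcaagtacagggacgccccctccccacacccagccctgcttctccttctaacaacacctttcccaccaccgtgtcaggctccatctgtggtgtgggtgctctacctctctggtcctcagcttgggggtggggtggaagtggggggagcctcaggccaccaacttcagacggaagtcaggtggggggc
Il11: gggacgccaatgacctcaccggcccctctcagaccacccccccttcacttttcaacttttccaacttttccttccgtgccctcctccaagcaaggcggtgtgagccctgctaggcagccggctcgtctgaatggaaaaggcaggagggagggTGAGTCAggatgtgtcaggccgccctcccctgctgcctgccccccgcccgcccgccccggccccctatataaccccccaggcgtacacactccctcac
Socs3: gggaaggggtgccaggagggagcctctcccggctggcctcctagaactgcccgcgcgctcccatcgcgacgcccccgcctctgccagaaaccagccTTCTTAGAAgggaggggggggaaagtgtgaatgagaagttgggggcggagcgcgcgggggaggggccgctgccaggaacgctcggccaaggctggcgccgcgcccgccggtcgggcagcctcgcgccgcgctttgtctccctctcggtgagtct
The AP-1 motif, bound by Fos and Jun proteins, was found before Il6, Lif and the shown Il11 start, in 3 of 8 members, and in 6.75% of 32841 promoters of the same length. A single STAT motif lay 154 to 146 bases before the start of Socs3, and 7.02% of all promoters held such a match. The NF-kB match before Il6 lay 44 to 35 bases from the start, a motif found in 3.9% of promoters, and its CRE core at 135 to 131 bases, found in 17.8%. The CArG box, the motif that SRF binds, was found in 0 of the 8 members' windows and in 1.47% of all promoters. These letter matches do not show binding. Osm and Lif, both on chromosome 11, are direct neighbours in the GRCm38.p6 annotation, and Osmr and Lifr, both on chromosome 15, have no other protein-coding gene between them.

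The ligand genes Il6, Lif, Osm and Il11 were high in all 4 resistant tumours and in sensitive tumour 4 and low in sensitive tumours 1 to 3, as the plot of the tumour values by gene shows. The receptor gene Lifr had the opposite order. Il6st, Osmr and Stat3 had overlapping values throughout. With all 8 tumours 0 of the 10 members passed an adjusted p of 0.05 by limma, where 0.113% of 15076 genes tested did. At an unadjusted p under 0.05 there were 5 (Il6, Lif, Il11, Lifr and Socs3), beside 25.1% of all genes. By edgeR 0 members passed, of 0 genes in all. By DESeq2 3 did, where 1630 of 15076 genes passed, 519 higher and 1111 lower. Without sensitive tumour 4, 5 members rose and 1 fell in resistant tumours, where 40.0% of 15479 genes passed, 20.6% higher and 19.4% lower. The groups did not overlap for any of these 6, as for 24.3% of all genes upward and 23.3% downward. Of the 6, Il6 and Osm met the filter of 10 normalized counts in that fit only through the resistant tumours. Under the alternatives other than leaving out sensitive tumour 4, adjusted p-values lay between 0.0288 and 0.391 for Il6, 0.043 and 0.391 for Lif, 0.217 and 0.675 for Osm, 0.0794 and 0.391 for Il11, 0.0114 and 0.391 for Lifr and 0.176 and 0.406 for Socs3, and values under 0.05 came from DESeq2.

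**Figure D1:**
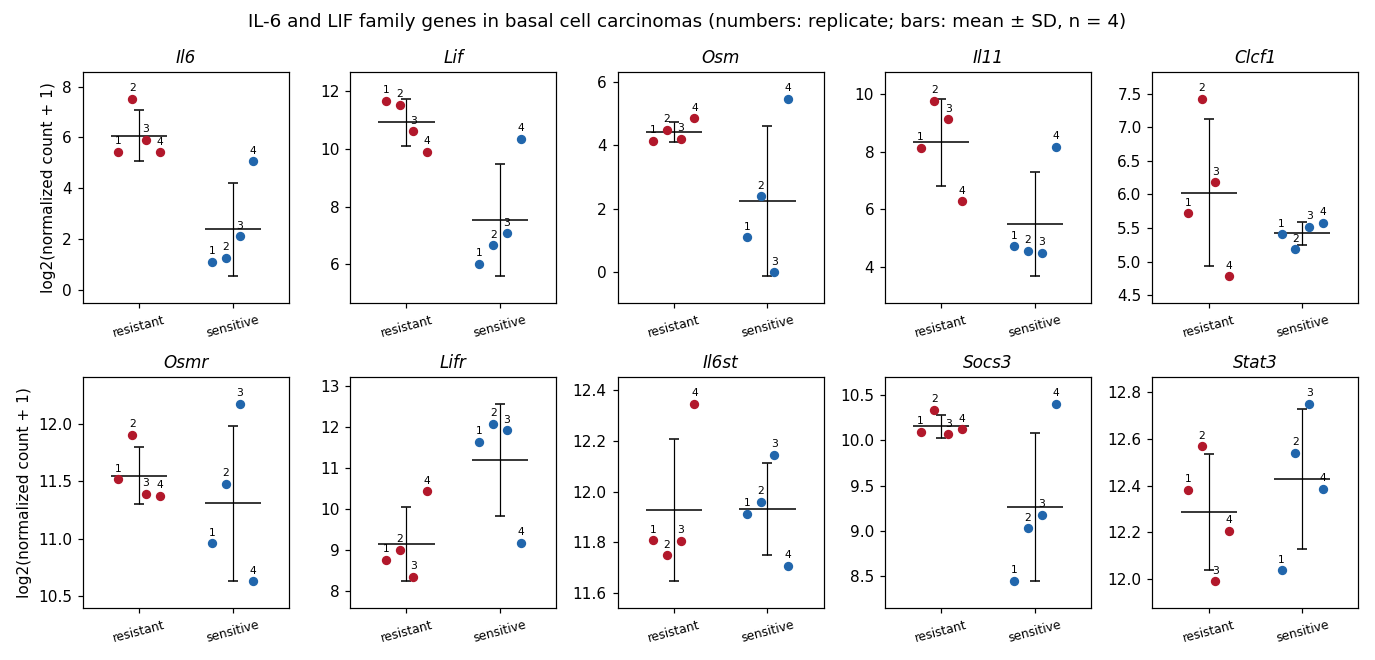
Normalized counts of the 10 members, as log2(value + 1), in 4 resistant (red, left) and 4 sensitive tumours (blue, right), with each library's replicate number and the mean ± SD of each group. Sensitive tumour 4 stands apart from sensitive tumours 1 to 3 in Il6, Lif, Osm, Il11, Lifr and Socs3.

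Lif encodes a ligand of the LIFR and gp130 pair. It had 3246, 2952, 1568 and 956 normalized counts in resistant tumours 1 to 4, and 63.3, 100.3, 134 and 1312 in sensitive tumours 1 to 4. The groups overlapped only through sensitive tumour 4, which lay inside the resistant range. The log2 fold change was 3.40 ± 0.87 (SE) with all tumours (limma, adjusted p = 0.138) and 4.34 ± 0.44 without sensitive tumour 4 (limma, adjusted p = 0.000296). Lif averaged 2180 ± 1096 (SD, n = 4) in resistant tumours and 99.3 ± 35.4 (SD, n = 3) in sensitive tumours 1 to 3.

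Il6 encodes the founding ligand, which signals through its own receptor IL6R and gp130. It was at 42.0, 184, 58.7 and 41.9 normalized counts in resistant tumours 1 to 4, and at 1.15, 1.41, 3.31 and 32.4 in sensitive tumours 1 to 4. Every resistant tumour was above every sensitive one, an order that 3.9% of all tested genes shared, and sensitive tumour 4 was the closest to them. The log2 fold change was 3.68 ± 0.90 (limma, adjusted p = 0.137), and 4.57 ± 0.57 without sensitive tumour 4 (limma, adjusted p = 0.000698). The resistant tumours held 430 reads of Il6 in all and sensitive tumours 1 to 3 held 4, a ratio per read sequenced of 40.9 (95% interval 15.9 to 151, exact binomial, counting error only).

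Il11 encodes a ligand that binds its own receptor IL11RA and gp130. Its normalized counts were 279, 867, 555 and 76.7 in resistant tumours 1 to 4, and 25.3, 22.6, 21.5 and 289 in sensitive tumours 1 to 4. Resistant tumour 4 was the lowest of its group but still above sensitive tumours 1 to 3. The log2 fold change was 2.83 ± 0.97 with all tumours (limma, adjusted p = 0.151) and 3.73 ± 0.71 without sensitive tumour 4 (limma, adjusted p = 0.00415).

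Osm encodes oncostatin M, which leukocytes such as neutrophils and macrophages make. It had 16.6, 21.5, 17.4 and 27.9 normalized counts in resistant tumours 1 to 4, and 1.15, 4.24, 0 and 43.6 in sensitive tumours 1 to 4. Sensitive tumour 4 had the highest value of all 8. Without it the log2 fold change was 3.26 ± 0.59 (limma, adjusted p = 0.0034), against 2.18 ± 1.04 with it (limma, adjusted p = 0.223). In the fit without it, Osm met the filter of 10 normalized counts only through the resistant tumours, where it was high. The p-value of that fit is thus no support for the gap. Reads of Osm numbered 110 in the resistant tumours, 43 in sensitive tumour 4 and 4 in sensitive tumours 1 to 3. For resistant tumours over sensitive tumours 1 to 3 the ratio per read sequenced was 10.5 (95% interval 3.97 to 39.1, exact binomial, counting error only). Over all 8 tumours the ratio of mean normalized counts was 1.70. Neutrophil markers moved with Osm. The 5 of 6 listed markers in the table, which include Csf3r, Cxcr2 and S100a8, summed to 6150 to 8966 normalized counts in resistant tumours, 16350 in sensitive tumour 4 and 633 to 1077 in sensitive tumours 1 to 3. All 5 had reads in each of these groups. S100a8, S100a9 and Retnlg were 14.6-fold, 17.7-fold and 17.6-fold higher in resistant tumours than in sensitive tumours 1 to 3. The other markers differed by less, with Csf3r averaging 1642 and 253 in these groups and Cxcr2 998 and 252. Against all 4 sensitive tumours the 5 markers were 1.39-fold to 2.035-fold higher (ratio of means). None then passed by limma (adjusted p from 0.167 to 0.232). The part of these cells in the ligand values was not tested. The macrophage and monocyte marker Cd14 had the same order. It was at 1165 to 2254 in resistant tumours, 3735 in sensitive tumour 4 and 147 to 288 in sensitive tumours 1 to 3. Its limma adjusted p was 0.215 with all tumours and 0.000232 without sensitive tumour 4. Other markers of the list were split. Emr1 averaged 1443 in resistant tumours and 2259 in sensitive tumours 1 to 3, and Mrc1 880 and 1573. Csf1r, Cd68 and Itgam averaged higher in resistant tumours. All 6 markers of that list in the table together summed to 4906 to 21710 in resistant and 5423 to 13030 in sensitive tumours, which overlap, and so did the 6 fibroblast markers, at 77400 to 117400 in resistant and 64300 to 136000 in sensitive tumours.

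Clcf1, which encodes a ligand for the CNTF receptor, did not follow the other ligands. It ranged from 26.5 in resistant tumour 4 to 171 in resistant tumour 2, and from 35.3 to 46.6 in the sensitive tumours. The groups overlapped, and the log2 fold change was 0.61 ± 0.50 (limma, adjusted p = 0.445), or 0.66 ± 0.54 without sensitive tumour 4 (limma, adjusted p = 0.361).

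Among the receptor genes Lifr, the subunit that LIF and gp130 join, was lower in resistant tumours than in sensitive tumours 1 to 3. Its normalized counts were 430, 513, 324 and 1372 in resistant tumours 1 to 4, and 3158, 4298, 3857 and 573 in sensitive tumours 1 to 4. All resistant tumours were below sensitive tumours 1 to 3, and sensitive tumour 4 was inside the resistant range. The log2 fold change was -2.06 ± 0.68 (limma, adjusted p = 0.147), and -2.74 ± 0.43 without sensitive tumour 4 (limma, adjusted p = 0.0018). Basal keratinocyte markers stood the same way round: all 6 were present, and they summed to 27120 to 75630 normalized counts in resistant tumours, 64110 in sensitive tumour 4 and 124500 to 193600 in sensitive tumours 1 to 3. Their part in the Lifr values was not tested.

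Osmr, the receptor subunit for oncostatin M, averaged 3025 ± 555 normalized counts in the resistant and 2760 ± 1348 in the sensitive group (SD, n = 4 each). Its log2 fold change was 0.24 ± 0.31 (limma, adjusted p = 0.634), and 0.01 ± 0.27 without sensitive tumour 4. Il6st averaged 3951 ± 837 in resistant and 3928 ± 486 in sensitive tumours, with a log2 fold change of -0.0048 ± 0.18 (limma, adjusted p = 0.988), and -0.08 ± 0.17 without sensitive tumour 4 (limma, adjusted p = 0.742). Its sign depended on which tumour was left out. Resistant tumours 1 to 3 had 3440 to 3584 normalized counts of Il6st and resistant tumour 4 had 5203. These values do not show that the receptor levels were equal.

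Stat3 averaged 5051 ± 858 normalized counts in the resistant group and 5601 ± 1125 in the sensitive group (SD, n = 4 each), with a log2 fold change of -0.14 ± 0.20 (limma, adjusted p = 0.654), and -0.16 ± 0.21 without sensitive tumour 4 (limma, adjusted p = 0.574). Its feedback inhibitor Socs3 had the order of the ligands. Socs3 had 1090, 1294, 1071 and 1113 normalized counts in resistant tumours 1 to 4, and 349, 521, 578 and 1354 in sensitive tumours 1 to 4. The resistant tumours lay close together, all above sensitive tumours 1 to 3 and below sensitive tumour 4. The log2 fold change was 0.89 ± 0.36 (limma, adjusted p = 0.177), and 1.27 ± 0.19 without sensitive tumour 4 (limma, adjusted p = 0.00151).

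STAT3 target genes were mostly higher in resistant tumours without sensitive tumour 4. Of 25 genes on a list of known targets, 21 rose and 1, Fgl2, fell, where 20.6% of all genes rose and 19.4% fell, and the median log2 fold change was 1.23 beside 0.02 over all genes. With all 8 tumours 0 of the 25 passed by limma or edgeR and 6 rose by DESeq2, where 519 of 15076 genes rose. At an unadjusted p under 0.05 there were 16, beside 25.1% of all genes, 24 had a positive log2 fold change, and the median was 0.99 beside 0.03 over all genes. The 4 of smallest p without sensitive tumour 4 were Vegfa (3.52 ± 0.21), an angiogenic growth factor, Bcl3 (1.72 ± 0.17), an NF-kB cofactor, Icam1 (1.88 ± 0.19), which binds leukocytes, and Hif1a (1.76 ± 0.19), the oxygen-regulated factor, each as log2 fold change ± SE with limma adjusted p from 3.84e-05 to 0.000357. With all 8 tumours the values were 2.67 ± 0.72 for Vegfa, 1.39 ± 0.32 for Bcl3, 1.46 ± 0.39 for Icam1 and 1.34 ± 0.39 for Hif1a, and none passed by limma. Other pathways also control these genes. The list also holds Lcn2, Saa3, Lrg1 and Hp, which neutrophils or the acute phase response are known for, and the neutrophil markers given beside Osm stood the same way round. Their part in the counts was not tested.

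Calls among the remaining family genes and signal transducers, again without sensitive tumour 4, went both ways. Of 12 other family ligands and receptors 9 were tested, 0 rose and 2 fell. Il31ra, which pairs with OSMR to bind IL-31, averaged 11.8 ± 16.4 normalized counts in resistant tumours and 307 ± 191 in sensitive tumours 1 to 3 (limma, adjusted p = 0.00247). Il11ra1, the receptor for IL-11, averaged 289.5 ± 186 in resistant tumours and 1102 ± 59.9 in sensitive tumours 1 to 3 (limma, adjusted p = 0.00427), and reads may be split with its near-identical copy Il11ra2. Of 13 JAK-STAT signal transducers 4 rose and 4 fell, with Jak3 at 1.23 ± 0.23, Stat6 at 0.81 ± 0.20, Stat5b at -1.66 ± 0.31 and Stat5a at -0.96 ± 0.19 on the log2 scale, where 40.0% of all genes passed. Of 13 feedback genes 3 rose, namely the phosphatase gene Ptpn2 (1.07 ± 0.16), Socs6 (0.97 ± 0.17) and Socs5 (0.69 ± 0.18), and 2 fell, among them Socs7 (-0.77 ± 0.15). With all 8 tumours 0 genes of these 3 lists passed by limma or edgeR. By DESeq2 2 fell, where 1111 of 15076 genes fell. At an unadjusted p under 0.05 there were 2 of 9, 4 of 13 and 4 of 13, near the 25.1% of all genes. Their log2 fold changes were then -3.65 ± 1.47 for Il31ra, -1.50 ± 0.63 for Il11ra1, 0.91 ± 0.34 for Jak3, 0.62 ± 0.25 for Stat6, -1.12 ± 0.53 for Stat5b and -0.63 ± 0.32 for Stat5a. Those of the feedback genes were 0.83 ± 0.25 for Ptpn2, 0.73 ± 0.26 for Socs6, 0.59 ± 0.19 for Socs5 and -0.62 ± 0.19 for Socs7.

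**Figure D2:**
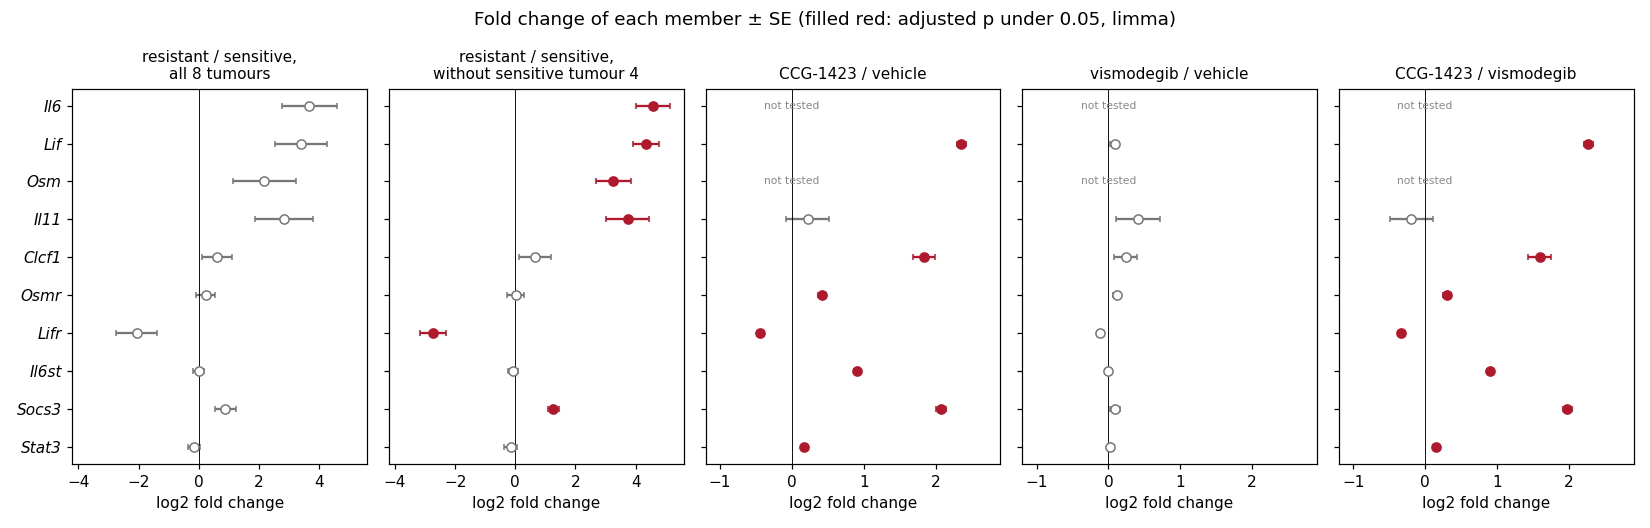
Log2 fold change ± SE of each member in each comparison, with filled red points for an adjusted p under 0.05 by limma and open points otherwise. Lif is among the highest points in the tumours and with CCG-1423, and Il6 and Osm were too low to be tested in the cells.

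In ASZ001 cells CCG-1423 was set against vehicle to see which genes change with this inhibitor of MRTF and SRF signalling. Whether that signalling fell in these libraries was not tested. Most expressed genes changed with this compound: 85.3% of 12775 genes tested passed, 42.8% higher and 42.6% lower. Of the 10 members 8 passed the filter, and of these 6 rose and 1 fell. A count of 7 of 8 is close to the background, so the sizes are given. Lif, Socs3 and Clcf1 rose at least 2-fold, as did 11.7% of all genes. The median log2 fold change of the 8 was 0.66, beside 0.00 over all genes.

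Lif had 1339, 1365 and 1386 normalized counts with CCG-1423, against 280, 269 and 247 with vehicle. The CCG-1423 libraries were about 5.14-fold higher and differed little among themselves. Clcf1 had 222, 233 and 213 with CCG-1423, against 51.5, 69.2 and 65.6 with vehicle, with no overlap. The log2 fold changes were 2.36 ± 0.07 for Lif and 1.84 ± 0.16 for Clcf1 (limma, adjusted p = 3.0e-14 and 2.0e-08).

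Il6 was detected in every CCG-1423 library and in 1 vehicle library, at the edge of detection. The 3 CCG-1423 libraries held 19 reads of Il6 among 110665183, and the vehicle libraries 1 read among 110373060, a ratio per read sequenced of 18.9 (95% interval 3.01 to 787, exact binomial, counting error only). These values did not reach the filter of 10 normalized counts. Osm had 1 read in 1 CCG-1423 library and 0 in the vehicle libraries. Il11 was at 24.6, 14.7 and 18.5 normalized counts with CCG-1423 and at 12.3, 14.9 and 22.6 with vehicle, which overlap (log2 fold change 0.22 ± 0.30, limma adjusted p = 0.503).

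**Figure D3:**
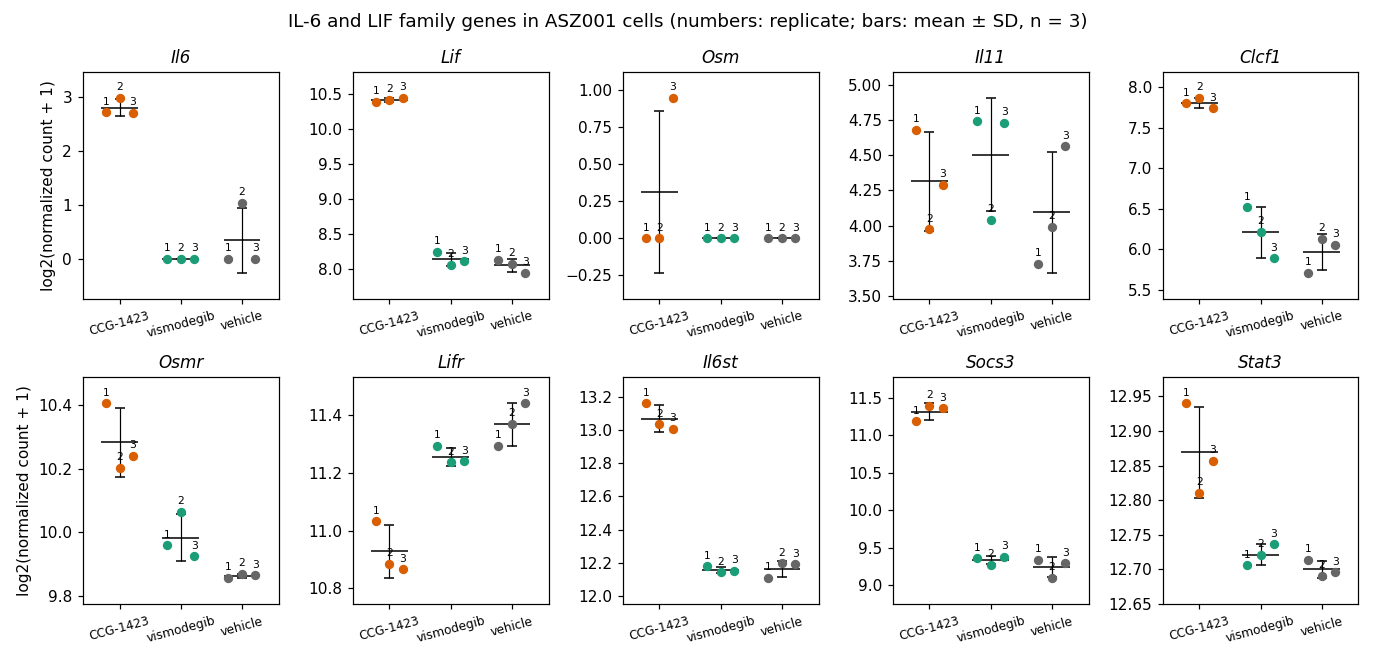
Normalized counts of the 10 members, as log2(value + 1), in ASZ001 cells with CCG-1423 (orange), vismodegib (green) or vehicle (grey), 3 libraries each with replicate numbers and the mean ± SD. Each panel has its own axis, and Lif, Clcf1, Il6st and Socs3 stand apart with CCG-1423.

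The receptor genes moved in both directions with CCG-1423. Il6st, the shared subunit, had 9156, 8389 and 8235 normalized counts with CCG-1423, against 4417, 4689 and 4670 with vehicle. It was 1.87-fold higher, and the log2 fold change was 0.90 ± 0.04 (limma, adjusted p = 3.6e-12). Osmr rose by less, to 1355, 1178 and 1209 with CCG-1423 against 926, 934 and 931 with vehicle (0.42 ± 0.05, limma adjusted p = 2.9e-06). Lifr fell to 2094, 1891 and 1866 with CCG-1423, against 2509, 2644 and 2777 with vehicle (-0.44 ± 0.05, limma adjusted p = 2.9e-07). None of these 3 genes overlapped between the groups, an order that 43.0% of all genes showed upward and 42.8% downward.

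Socs3 had 2331, 2697 and 2628 normalized counts with CCG-1423, against 648, 547 and 625 with vehicle. This 4.21-fold rise (log2 fold change 2.07 ± 0.07, limma adjusted p = 1.1e-13) compares with a 1.13-fold one for Stat3 itself. Stat3 had 7857, 7185 and 7416 with CCG-1423, against 6717, 6609 and 6633 with vehicle (0.17 ± 0.03, limma adjusted p = 0.000166). Marker sums of cell types stood apart beside these genes. The 6 basal keratinocyte markers summed to 274500 to 285400 normalized counts with CCG-1423 and to 1305000 to 1337000 with vehicle, a sum carried by Krt5, Krt14 and Col17a1, while Epcam averaged 6802 ± 365 with CCG-1423 and 3466 ± 139 with vehicle (SD, n = 3 each). The endothelial markers summed to 302 to 360 with CCG-1423 and 928 to 940 with vehicle. Most of this was Pecam1, which averaged 294 with CCG-1423 and 882 with vehicle, while Vwf averaged 37.9 and 35.2. The fibroblast markers summed to 97.8 to 125 with CCG-1423 and 176 to 205 with vehicle. Among them Col1a1 went the other way, averaging 22.5 with CCG-1423 and 5.35 with vehicle. The neutrophil markers, nearly all Cxcr2, summed to 109.5 to 145.6 with CCG-1423 and 47.9 to 71.9 with vehicle. The macrophage and monocyte markers, mostly Cd68 and Cd14, summed to 960 to 1115 with CCG-1423 and to 556 to 594 with vehicle. Among them Csf1r averaged 3.11 with CCG-1423 and 19.3 with vehicle. Other markers of these lists were absent or nearly so. Retnlg, Kdr and Lum had 0 reads with CCG-1423 and with vehicle, and Emr1 had 1 read in each. What the sums reflect in this single line, and their part in the results, was not tested.

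Counts in the pathway lists stand beside a background at which 85.3% of all genes passed with CCG-1423, 42.8% higher and 42.6% lower. Of 19 STAT3 target genes tested, 12 rose and 6 fell, with a median log2 fold change of 0.69. Cebpb, a transcription factor of the acute phase response, had a log2 fold change of 2.00 ± 0.04, Vegfa 2.32 ± 0.05, Myc, a growth regulator, 1.09 ± 0.03 and Pim1, a survival kinase, 2.46 ± 0.08 (limma, adjusted p from 3.7e-16 to 1.6e-13). Of 13 feedback genes 7 rose and 4 fell, a share near that of all genes. Socs1 rose by 2.29 ± 0.15 on the log2 scale, Socs7 by 1.12 ± 0.03, Ptpn2 by 0.72 ± 0.06 and Socs2 by 0.68 ± 0.06. Of 13 signal transducers 7 rose and 4 fell, with Jak2, the kinase gene, at 1.52 ± 0.04, Stat5b at 0.69 ± 0.05, the adaptor gene Gab1 at 0.44 ± 0.03 and Jak3 at -1.73 ± 0.06.

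Of the 12 other ligands and receptors 6 were tested with CCG-1423, 4 fell and 2, Cntf and Ebi3, rose. Among those that fell, Il6ra, the receptor gene for IL-6, had a log2 fold change of -0.81 ± 0.10, Il11ra1 -0.57 ± 0.08 and Ctf1 (cardiotrophin 1) -0.38 ± 0.07, with limma adjusted p from 1.4e-06 to 0.000191. The plot of the pathway lists sets these genes beside the tumours.

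**Figure D4:**
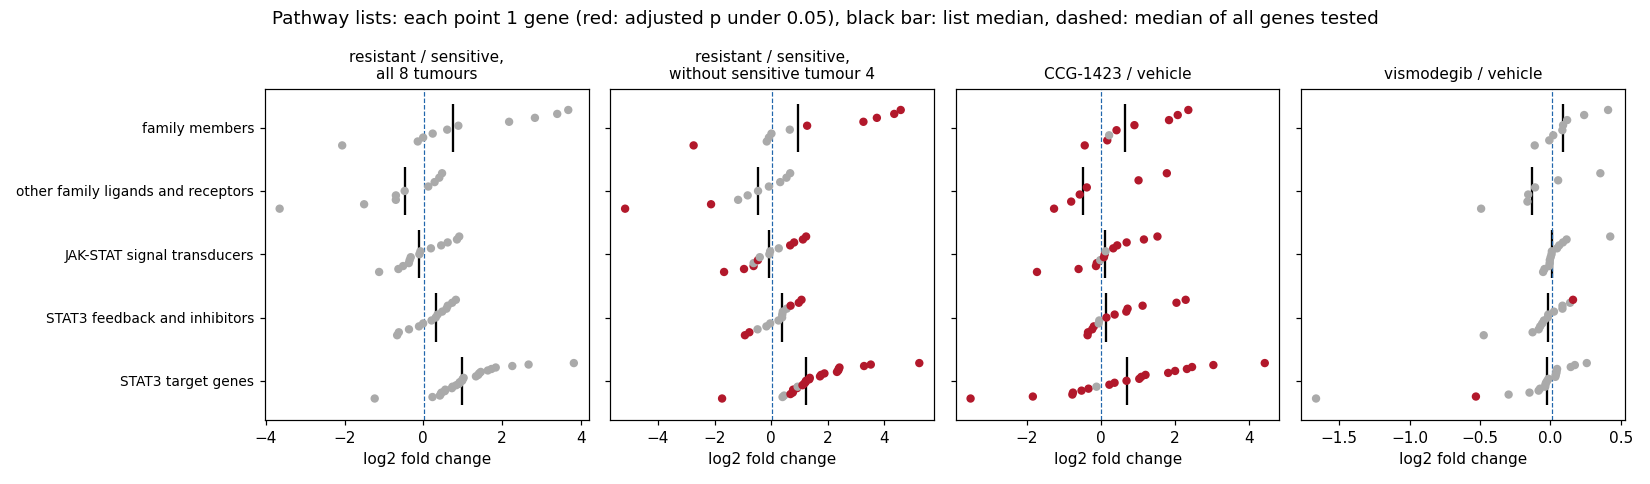
Log2 fold changes of the members and of the 4 pathway lists in the tumours (all 8, and without sensitive tumour 4) and with each compound against vehicle, 1 point a gene, red for an adjusted p under 0.05 by limma. Black bars mark list medians, the dashed line the median of all genes tested, and the axes differ between panels. Without sensitive tumour 4 most STAT3 target genes are red and to the right of 0 (21 of 25), and with vismodegib 2 points in all are red.

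Vismodegib was compared with vehicle to see what Smo inhibition does in these cells. Gli1, a Hedgehog target gene, was at 229 to 272 normalized counts with vismodegib and at 1100 to 1304 with vehicle. Ptch1, another, was at 268 to 290 with vismodegib and at 305 to 332 with vehicle. With CCG-1423 Gli1 was at 319 to 409 and Ptch1 at 494 to 655. For vismodegib against vehicle, none of the 8 tested members passed by limma, edgeR or DESeq2, where 5.5% of all genes passed by limma. At an unadjusted p under 0.05 there were 2, Osmr and Lifr, beside 18.5% of all genes. Osmr had 994, 1070 and 971 normalized counts with vismodegib, against 926, 934 and 931 with vehicle (log2 fold change 0.12 ± 0.05, limma adjusted p = 0.258). Lifr had 2507, 2411 and 2418 with vismodegib, against 2509, 2644 and 2777 with vehicle (-0.11 ± 0.05, limma adjusted p = 0.214). The groups did not overlap for either gene, as for 16.0% of all genes upward and 14.0% downward. Of all calls with vismodegib 28.7% were upward, and with values scaled to total reads this share was 90.5%.

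Lif averaged 282 ± 19.2 normalized counts with vismodegib and 265 ± 17.1 with vehicle (SD, n = 3 each), and Socs3 645 ± 25.1 with vismodegib and 607 ± 52.8 with vehicle. The log2 fold changes of Lif and Socs3 were 0.09 ± 0.07 each, those of Clcf1 and Il11 0.24 ± 0.16 and 0.41 ± 0.30, and those of Il6st and Stat3 -0.01 ± 0.04 and 0.02 ± 0.03. Il6 and Osm had 0 reads in the vismodegib libraries. In the lists, 1 feedback gene rose (Socs7, 0.16 ± 0.03, limma adjusted p = 0.00365) and 1 STAT3 target gene, Ccnd1 for cyclin D1, fell (-0.53 ± 0.06, limma adjusted p = 5.3e-05), where edgeR and DESeq2 called 2. Of the 6 other ligands and receptors and the 13 signal transducers 0 passed by limma, edgeR or DESeq2, and 0 and 3 did at an unadjusted p under 0.05. With values scaled to total reads, 2923 of 12775 genes rose and 306 fell. There Osmr (0.20) and Stat3 (0.10) passed as well, as did 4 signal transducers upward and 6 STAT3 target genes upward and 2 downward.

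Set directly against vismodegib, CCG-1423 left 6 members higher and 1 lower of the 8 tested, where 84.8% of all genes passed, 42.4% higher and 42.4% lower. Neither dose nor duration is known for the compounds, so exposures may not be matched. The log2 fold changes of CCG-1423 over vismodegib were 2.27 ± 0.07 for Lif, 1.98 ± 0.07 for Socs3, 1.60 ± 0.16 for Clcf1, 0.91 ± 0.04 for Il6st, 0.30 ± 0.05 for Osmr, 0.15 ± 0.03 for Stat3 and -0.33 ± 0.05 for Lifr. All 7 had a limma adjusted p of at most 0.00054. Il11 did not pass (-0.19 ± 0.30, limma adjusted p = 0.56). Both compounds were compared with the same vehicle libraries.

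In RPM (a gene's reads over the library's reads at genes, times 1000000), a scale set across separately normalized tables and not tested, Il11 was lower in every cell library than in any tumour, Osm was at or near 0 in the cells and in 1 sensitive tumour, and Lif, Il6 and Clcf1 had ranges that overlapped between tumours and cells. Osm had 1.08 to 2.00 in resistant tumours and 0 to 3.04 in sensitive tumours, against at most 0.0266 in any cell library. Il11 had 5.50 to 61.2 in resistant and 1.60 to 20.1 in sensitive tumours, against 0.341 to 0.755 over the cell libraries. Lif had 68.5 to 212 in resistant and 4.94 to 91.4 in sensitive tumours, beside 37.4 to 39.8 with CCG-1423, 7.73 to 8.90 with vismodegib and 6.77 to 7.79 with vehicle. Il6 had 2.74 to 13.0 in resistant and 0.0899 to 2.26 in sensitive tumours, beside 0.156 to 0.195 with CCG-1423, 0 with vismodegib and 0 to 0.0293 with vehicle. Clcf1 had 1.90 to 12.1 in resistant and 2.72 to 3.33 in sensitive tumours, beside 6.12 to 6.55 with CCG-1423, 1.70 to 2.66 with vismodegib and 1.43 to 1.90 with vehicle. Osm was nearly absent from the cell line, while Lif was present in every library of both tables.

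Genes whose levels ran most like Lif and Socs3 in both tables were picked by the smaller of their Pearson correlations over 8 tumours and over 9 cell libraries. In both tables the libraries fall into groups that stand far apart, so these values span that gap. For Lif they were Gstcd, Itga3, an integrin subunit gene, and Itprip, with smaller correlations of 0.98 to 0.99. For Socs3 they were Rabggtb, Dennd3 and Fn1, the fibronectin gene, with 0.98 to 0.99. Il6 was not tested in the cells and has no such genes.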

How the data were processed

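Per the labels, RNA was purified with a Qiagen RNeasy kit and sequenced from paired-end Illumina libraries. Both tables hold deposited signal values, which are the authors' read counts after division by a library's own size factor. Dividing by the smallest value above 0 turned 100% of values into whole reads (within 0.01 read). The submitters' processing notes list TopHat, DESeq and mm9 but give no roles. No source used here names the counter, annotation or strandedness. The 8 exome samples were not used.

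Testing used limma 3.58.1 (R 4.3.3; variance trend) on log2 values after adding a pseudocount of 1. Genes needed a value of 10 or more in 4 tumour or 3 cell libraries (with a library left out, in as many as the smallest group holds). A gene could thus meet the filter through 1 group alone. Separate fits covered the 8 tumours and the 9 cell libraries. P-values are 2-sided and adjusted by Benjamini-Hochberg over all tested genes, with a threshold of 0.05. Fold changes on this scale understate low genes. edgeR 4.0.16 (TMM) and DESeq2 1.42.0 were run on recovered reads as alternatives. The fits were tested on simulated data. Replicates differed by more than counting noise (chi-square over degrees of freedom at least 1.84). Where a gene had 0 reads, up to 3 could have been missed, or 2.09 to 4.97 normalized counts for tumours and 2.45 to 3.40 for cells (counting error only). All members are described. Of each other list, up to 4 passing genes of smallest adjusted p are named, except 1 that is not reported here. Fgl2, Cntf and Ebi3, the exceptions in small counts, were named after their values were seen. Members and lists were chosen with earlier results of these data known. Promoters are RefSeq's for GRCm38.p6.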

Additional observations from a re-analysis of the deposited data

Results flagged for a closer look

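A tumour far from the other 3 of its group was found in 13 of 48 groups of 4 tumours (24 genes, each in the resistant and the sensitive group), by Dixon's gap test at the 95% level, where chance gives about 1 in 20. Of the 24 genes 14 were picked by their p without sensitive tumour 4, which favours genes in which that tumour stands apart, so the tally cannot be read against chance. In the 10 members, which were not picked by that p, 6 of 20 groups had such a tumour, 4 of them sensitive tumour 4. With the other genes it was sensitive tumour 4 in 10 of the 13. The share of all tested genes with such a tumour was not computed. Sensitive tumour 4 also lay apart from the other sensitive tumours over the genes as a whole, so these counts are no result about the members. That tumour was higher than the other sensitive tumours for Il6 (32.4 normalized counts), Lif (1312), Osm (43.6), Il11 (288.9), Ptpn2 (1289), Socs6 (725), Vegfa (4741), Bcl3 (336.5) and Hif1a (7169), and lower for Il11ra1 (198). Among resistant tumours, tumour 2 stood apart in Il6, at 184 where the others had 41.9 to 58.7. Tumour 4 stood apart in Il6st, at 5203 where the others had 3440 to 3584, and in Il31ra, at 36.3 where the others had 1.75 to 5.92. The causes of these gaps were not tested.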

How the results depend on the processing

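With CCG-1423 against vehicle, and against vismodegib, the 8 tested members kept their direction and their side of the threshold under every alternative tried, and 7 members passed each time, or 8 without a filter on low values, where Il6 passed too (limma, adjusted p = 2.5e-05 against vehicle). In the tumours 17 genes passed. The count was 0 with a pseudocount of 0.5, edgeR, scaling to total reads or the replicate block (where 3513 genes by edgeR and 3365 with the block had an unadjusted p under 0.05), 1630 with DESeq2, and from 0 to 6184 with a tumour left out. It was 6184 without sensitive tumour 4 and 0 without any other. Members passing numbered 3 with DESeq2 (Il6, Lif and Lifr), 0 to 6 with a tumour left out (6 without sensitive tumour 4) and 0 under the other alternatives. The Il6st log2 fold change ranged from -0.1443 to 0.0663 with a tumour left out and changed sign in 5 of these fits. With vismodegib 703 genes passed, 3229 with scaling to total reads, 1721 with only the 2 groups in the fit, and 325 to 1491 with a library left out (1491 without CCG-1423 replicate 1, 358 to 392 without vehicle replicate 1, 2 or 3, 380 and 325 without vismodegib replicates 2 and 3). Members passing were 2 with total reads, 1 with only the 2 groups (Lifr, limma adjusted p = 0.0356) and 0 to 1 with a library left out (Lifr, without CCG-1423 replicate 1). Il6st turned to 0.0743 with total reads and ranged from -0.0355 to 0.0076 with a library left out. Replicate numbers did not pair the libraries: same-numbered tumours had correlations of deviations from -0.15 to 0.12 and cell libraries from -0.04 to 0.04. With the replicate block 10848 genes passed for CCG-1423 against vehicle and 606 for vismodegib. The cause of these shifts was not tested. The few reads of Il6 and Osm limit what can be said of them in the cells and in sensitive tumours 1 to 3.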
